A study of Columba livia with 4 samples.

Results

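Long domains of trimethylated lysine 27 of histone H3 (H3K27me3) were described in primary melanocytes of the pigeon Columba livia. H3K27me3 peaks of the same scaffold were merged over gaps of up to 5 kb, and the merged domains of at least 20 kb were taken. The 648 members, 4.26% of 15208 merged domains, were chosen by H3K27me3 peak positions alone. Hence their length and H3K27me3 content are given as a description. The values that the rule did not use are those of acetylation of the same lysine (H3K27ac) and of SOX10. A further 5610 merged domains were 2 to under 20 kb long and 8950 were under 2 kb. The 4 samples, 1 library each, were chromatin immunoprecipitated for SOX10, H3K27ac or H3K27me3 and an input that was not immunoprecipitated, whose reads were not analysed here. All came from wild-type cells grown in Ham's F10 with fetal bovine serum (10%), Nu-serum (5%), the phorbol ester TPA (85 nM), cholera toxin (40 ng/mL) and endothelin-3 (10 ng/mL), so every value refers to this one stimulated culture condition. How many birds the cells came from is not stated. A target has 1 library and so no replicate error. No p-value is given, and exact 95% intervals (Poisson for counts, Clopper-Pearson for shares) cover counting error only.

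H3K27me3 is written by Polycomb repressive complex 2, binds complexes that keep developmental genes silent, and can spread over whole gene clusters. Acetylation and trimethylation cannot occupy the same lysine of the same histone tail. SOX10 is a transcription factor of the neural crest that is needed for the melanocyte lineage and acts largely at acetylated enhancers. In a bulk library, both marks at one place may come from different cells, alleles or neighbouring nucleosomes, and these cannot be told apart.

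The deposited lists held 36792 H3K27me3, 34223 H3K27ac and 6579 SOX10 peaks on 2200 scaffolds. The highest peak end on each scaffold was used as its span, a lower limit of its length, and the spans came to 1088 Mb. No annotation of this assembly was used, so domains are named by scaffold with 1-based start and end positions, without genes or sequence. Library totals are not stated. Fragment numbers at SOX10 summits were solved from the deposited fold and p, and SOX10 peaks on the scaffolds with long domains, outside those domains, had a median of 33 fragments at the summit over a local background of 8.98.

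The 648 long domains came to 26.8 Mb, or 2.47% of the span, and held 40.9% of all bases under H3K27me3 peaks and 9045 of the peaks (24.6%). Their length ran from 20.001 to 403 kb with a median of 30.2 kb. By length, 322 were 20 to 30 kb, 190 were 30 to 50 kb, 109 were 50 to 100 kb and 27 were at least 100 kb long. The 4 members just inside the threshold were 20.001 to 20.115 kb long, and the 4 domains just outside it were 19.91 to 19.975 kb long, with 46.1 to 67.6% of their length under H3K27me3 peaks, 0 H3K27ac peaks and 0 SOX10 summits. The members just inside had 29.8 to 47.9% covered. The shortest, at 41423 to 61423 of AKCR02000157.1, had 44.2% of its length under H3K27ac, and the member of 20.1 kb at 627100 to 647203 of AKCR02000014.1 had no H3K27ac and 1 SOX10 summit in it.

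Few of the long domains were unbroken. H3K27me3 peaks covered a median of 54.8% of a long domain (range 12 to 100%), with fewer than 25% of the length covered in 48 domains, 25 to 50% in 224, 50 to 75% in 268 and at least 75% in 108. Exactly 1 domain, of 27.3 kb at 1350550 to 1377839 of AKCR02000119.1, was a single peak. Its end matched the end of the scaffold's span (1.37784 Mb), so whether the scaffold end cuts it is not known. At the other extreme, the domain at 5460595 to 5481111 of AKCR02000006.1 joined 7 peaks of at most 0.491 kb and was covered over 12% of its length. A long domain joined a median of 11 peaks (1 to 84), and its widest peak had a median of 5.79 kb (0.491 to 41.2 kb). Together the covered share was 52.0% in the domains of 20 to 30 kb, 53.1% in those of 30 to 50 kb, 59.6% in those of 50 to 100 kb and 70.6% in the longest class. Across the 648 domains, Spearman's rho between length and covered share was 0.17, a description in which both measures come from the same peaks.

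**Figure D1:**
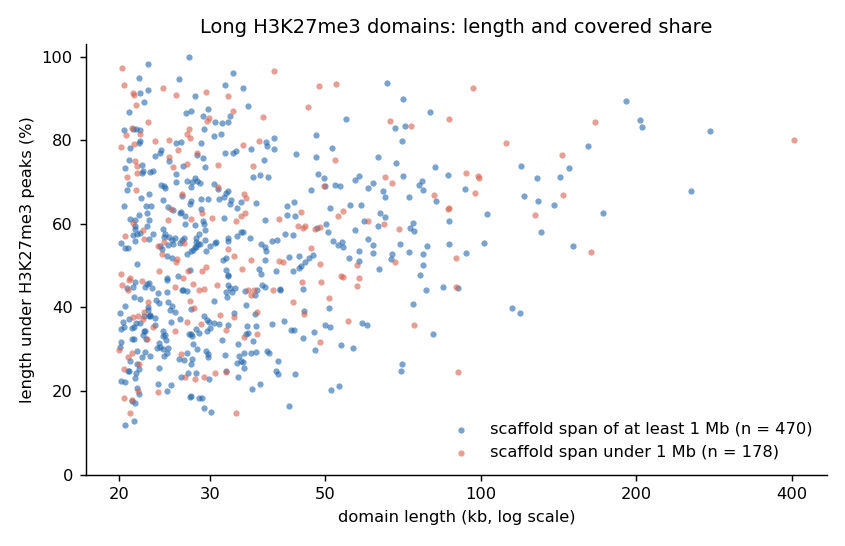
Each point is 1 of the 648 long H3K27me3 domains, by its length (kb, log scale) and the percent of that length under H3K27me3 peaks, coloured by whether its scaffold spans at least 1 Mb. Between 20 and 50 kb the covered share runs over most of the scale, whereas the 27 domains of at least 100 kb together had 70.6% covered.

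The gaps were mostly short. The 8397 gaps inside long domains came to 11.4 Mb, with a median of 919 bp (305 to 5000 bp). Of them, 53.5% were under 1 kb and 11.6% were at least 3 kb. Peaks inside long domains had a median width of 720 bp and a median deposited fold enrichment of 3.42, beside 443 bp and 3.22 for peaks of all shorter domains. All 35 H3K27me3 peaks of at least 20 kb are members by the rule itself, and 222 of the 259 peaks of at least 10 kb lay in long domains. Domains with more of their length covered also had higher folds. The median over domains of their median peak fold was 3.12 with under 25% covered, 3.22 with 25 to 50%, 3.56 with 50 to 75% and 4.92 with at least 75% covered. These values come from the library that chose the domains and carry no test.

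The 12 longest domains ran from 148 to 403 kb and had 53.3 to 89.3% of their length covered. The most continuous of them was the domain of 191 kb at 182270 to 372806 of AKCR02000043.1, which joined only 22 peaks and held the widest peak of the list, of 41.2 kb. The least covered, of 164 kb at 102153 to 265733 of AKCR02000204.1, joined 63 peaks of at most 9.33 kb. The 12 domains held 10 SOX10 summits, 0.401 per 100 kb (0.192 to 0.737). Had the summits of each scaffold been spread evenly over its span, 25.9 would lie in them. There was 0 SOX10 in 6 of the 12 domains and 0 H3K27ac in 3 of them.

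**Figure D2:**
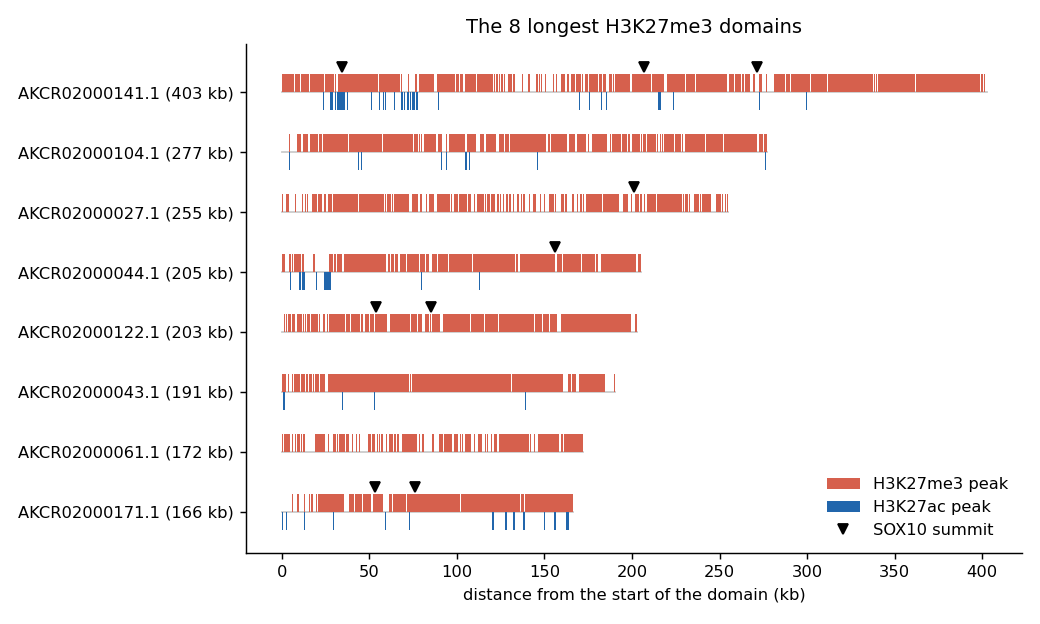
Map of the 8 longest domains, each drawn from its start (kb), with H3K27me3 peaks as red bars, H3K27ac peaks as blue bars and SOX10 summits as triangles. The AKCR02000027.1 domain shows 0 H3K27ac peaks, whereas the 41 H3K27ac peaks of the domain of 403 kb on AKCR02000141.1 are more numerous in its first 100 kb than in the rest of it.

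Long domains lay on 200 scaffolds that together span 931 Mb. Of the 648, 470 lay on 83 scaffolds that span at least 1 Mb and 178 on 117 shorter scaffolds, among them 39 on 38 scaffolds under 0.1 Mb. A domain can be cut short by the end of its scaffold. At an end of the span lay 47 domains, and 14 filled over 90% of it. The span ends at the last peak of any list, and domains that began shortly after the first base were not counted. The 47 is thus not a count of domains cut by a scaffold end. Scaffold size goes with other values, so the results below are given on scaffolds of at least 1 Mb too. The median over domains of their median H3K27me3 fold was 3.35 on scaffolds of at least 1 Mb and 4.29 on those under 0.1 Mb. Outside the long domains, H3K27ac covered 3.46% of the scaffolds of at least 1 Mb and 13.9% of the shorter ones.

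Over all scaffolds, H3K27ac was present in a minority of the long domains, and less of it than the same scaffolds carry on average. At least 1 H3K27ac peak touched 274 of the 648 domains (42.3%, 38.4 to 46.2%), beside 18.0% of all 15208 merged domains and 19.9% of those of 2 to under 20 kb. The share was 31.7% on scaffolds of at least 1 Mb (149 of 470, 27.5 to 36.1%). On shorter scaffolds it was a majority, 70.2% (125 of 178, 62.9 to 76.8%). A longer domain offers more room for a peak, and by length class the share was 36.0%, 39.5%, 58.7% and 70.4%. H3K27ac covered 3.79% of the long domains together, close to the 3.73% of the rest of the same scaffolds. This pooled comparison mixes scaffolds with different levels. When each scaffold's own H3K27ac share was applied to its long domains, 2195 kb would be acetylated, and 1018 kb were, or 0.463 times that amount. The ratio was 0.287 on scaffolds of at least 1 Mb (316 of 1101 kb) and 0.641 on shorter ones. Each scaffold's share includes its long domains, which draws the ratio toward 1 where they fill much of the scaffold. They made up 7.67 Mb beside 22.8 Mb of rest on scaffolds under 1 Mb, and 19.2 Mb beside 881 Mb on longer ones. Ratios of shorter and longer scaffolds are thus not fully comparable. Domains of 2 to under 20 kb had ratios of 0.720 over all scaffolds and 0.435 on those of at least 1 Mb.

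Over all long domains together, the acetylated bases were not gathered in the gaps, but this differed with cover. H3K27ac covered 3.65% of the bases under H3K27me3 peaks of long domains and 3.99% of their gaps, and on scaffolds of at least 1 Mb 1.69% and 1.60%. Against each scaffold's own level the ratios were 0.440 under H3K27me3 peaks and 0.497 in gaps. From the least to the most covered class, H3K27ac covered 10.8%, 6.47%, 2.97% and 2.49% of the bases under H3K27me3 peaks. In the same order it covered 5.89%, 4.21%, 3.32% and 3.88% of the gaps. The share was thus higher under peaks in the less covered classes and higher in gaps in the more covered ones. These values by class were not matched by scaffold. Of the 1236 H3K27ac peaks that touched a long domain, 120 crossed an edge and 1116 lay wholly inside. Of these 1116, 176 lay wholly in gaps, 514 wholly under H3K27me3 peaks and 426 partly under them. Of the 1.02 Mb acetylated inside long domains, 55.3% were also under H3K27me3, close to the 57.4% of domain length under H3K27me3.

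H3K27ac peaks wholly inside long domains were narrower than those outside, with a median of 492.5 bp (interquartile range 323 to 892 bp) beside 745 bp (422 to 1493 bp) on the rest of the same scaffolds. Their median fold was 3.45 beside 3.82. Those in gaps and those at least 50% under H3K27me3 had median widths of 502 and 432 bp and median folds of 3.48 and 3.36. A SOX10 summit lay in 3.76% of the H3K27ac peaks inside long domains (42 of 1116, 2.73 to 5.05%) and in 9.33% of those outside (8.98 to 9.69%). On scaffolds of at least 1 Mb the shares were 5.24% (3.27 to 7.89%) and 9.54%. Of the peaks wholly in gaps, 4.55% held a summit (8 of 176, 1.98 to 8.76%). Of those at least 50% under H3K27me3, 2.23% did (17 of 762, 1.30 to 3.55%). On scaffolds of at least 1 Mb these 2 shares were 10.7% (6 of 56, 4.03 to 21.9%) and 2.03% (6 of 296, 0.747 to 4.36%). None of the shares were matched for peak width.

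The amount of acetylation differed widely between domains. Among the 274 domains with any, the median was 3 H3K27ac peaks (1 to 41) and 3.59% of the length (0.196 to 77.6%). The 10 domains with the most acetylated bases held 21.0% of all such bases. Over 10% of the length was acetylated in 77 domains, of which 58 lay on scaffolds under 1 Mb, and over 25% in 35 domains, of which 31 lay there. The highest share, 77.6%, was that of the domain at 100529 to 131105 of AKCR02000286.1, with only 24.4% of its length under H3K27me3. The next was the domain at 3159713 to 3184714 of AKCR02000036.1, which had 49.5% under H3K27ac and 57.0% under H3K27me3, with 6.08 kb under both, and 2 SOX10 summits. The other members of the 6 highest were acetylated over 46.0 to 48.3% and lay on AKCR02000251.1, AKCR02000171.1, AKCR02000564.1 and AKCR02000231.1, all under 1 Mb in span.

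The remaining 374 long domains had no H3K27ac base. The longest of these measured 255 kb (AKCR02000027.1, 8949530 to 9204097) and of 203 kb at 510068 to 712934 of AKCR02000122.1. They were followed by domains of 172 kb on AKCR02000061.1, of 128 kb on AKCR02000136.1, of 121 kb on AKCR02000122.1 and of 115 kb on AKCR02000031.1. These 6 held 0 to 2 SOX10 summits each and were covered over 39.9 to 84.8%. On AKCR02000122.1, with a span of 1.29 Mb, 48.2% of the span lay in 7 long domains. Of these, 3 had no H3K27ac, and the one at 809108 to 939634 had 13 H3K27ac peaks and 5 SOX10 summits. No long domain held more summits, and a domain on AKCR02000027.1 held as many.

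With merging gaps of up to 5 kb, SOX10 summits were about as frequent in long domains as their scaffolds carry on average. Most of them sat in the gaps. The domains held 211 summits, and 166 domains (25.6%, 22.3 to 29.2%) held at least 1, beside 2.87% of all 15208 merged domains and 4.15% of those of 2 to under 20 kb, which are shorter. A single summit lay in 132 domains, 2 in 29, and 3 to 5 in the other 5. Spread evenly over each scaffold, 238 summits would lie in long domains, in 176 of them, so the observed number was 0.887 times the even one (0.771 to 1.01). On scaffolds of at least 1 Mb it was 1.01 times (153 beside 151, interval 0.858 to 1.19) and on shorter scaffolds 0.668 times (58 beside 86.8, 0.507 to 0.863). The ratio depends on the rule. Its log2 value was −0.17 (−0.38 to 0.02) as reported and −0.83 (−1.25 to −0.45) with merging gaps of up to 2 kb. It was −0.52 (−0.94 to −0.13) with H3K27me3 peaks of −log10 q of at least 3. For domains of at least 50 kb it was −0.33 (−0.65 to −0.03), and with gaps of up to 10 kb −0.10 (−0.24 to 0.03). The pooled densities were 0.786 summits per 100 kb inside (0.684 to 0.900) and 0.592 on the rest of the same scaffolds (0.576 to 0.608). They mix scaffolds of different density, and the difference between them is not seen in the ratios matched by scaffold.

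Under the H3K27me3 peaks themselves SOX10 was sparse. The 15.4 Mb under peaks held 44 summits, 0.285 per 100 kb (0.207 to 0.383), whereas the 11.4 Mb of gaps held 167, or 1.46 per 100 kb (1.25 to 1.70). Against even spreading on each scaffold the ratios were 0.317 under peaks (0.230 to 0.425) and 1.69 in gaps (1.44 to 1.96). The same ratios on scaffolds of at least 1 Mb were 0.254 (0.159 to 0.384) and 2.03 (1.70 to 2.41). On shorter scaffolds the gaps held 1.04 times the even number (0.726 to 1.43), so SOX10 summits as a whole were not more frequent in gaps there. Their density in gaps was 0.962 times that of the rest of these shorter scaffolds, pooled (0.660 to 1.36).

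Most of the gap summits were not acetylated. Of the 211 summits, 131 lay in a gap outside H3K27ac, 36 in a gap inside H3K27ac, 30 under H3K27me3 only and 14 under both marks. Thus 23.7% of summits in long domains (18.1 to 30.02%) lay in H3K27ac, beside 52.8% (51.5 to 54.2%) on the rest of the same scaffolds. Outside H3K27ac, the gaps had 1.19 summits per 100 kb (0.999 to 1.42), beside 0.290 on the rest. Matched by scaffold, the 131 summits were 3.29 times the even number of 39.8 (2.75 to 3.91). The ratio was 3.65 on scaffolds of at least 1 Mb (112 beside 30.7, 3.01 to 4.39) and 2.08 on shorter ones (19 beside 9.12, 1.25 to 3.25). Inside H3K27ac, the gaps held 36 summits where the scaffold's own rate per acetylated base would give 25.5, a ratio of 1.41 (0.991 to 1.96). This ratio was 1.95 on scaffolds of at least 1 Mb (19 beside 9.74, 1.17 to 3.05) and 1.08 on shorter ones (0.630 to 1.73). Of the 19 summits, 5 lay in a single domain, at 9272114 to 9331544 of AKCR02000027.1, with 36.1% of its length acetylated. The ratio without that domain was not computed. Under H3K27me3 peaks both kinds were below the scaffold rate, at 0.434 times inside H3K27ac (0.237 to 0.728) and 0.542 times outside it (0.366 to 0.774). Outside H3K27ac the ratio was 0.419 on scaffolds of at least 1 Mb (0.244 to 0.671) and 0.882 on shorter ones (13 beside 14.7, 0.470 to 1.51), so the shortage was not detectable on the shorter scaffolds.

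The 131 summits were spread over 113 domains on 67 scaffolds, with at most 10 on 1 scaffold. Domains of 2 to under 20 kb had 2.45 times the scaffold rate in gaps outside H3K27ac (147 beside 59.98, 2.07 to 2.88) and 0.431 times under H3K27me3 peaks for all summits (0.323 to 0.563). The intervals of these gap ratios outside H3K27ac overlap between the length classes, which does not show that the ratios are alike. For all gap summits on scaffolds of at least 1 Mb, long domains had 2.03 times the even number (1.70 to 2.41). The shorter domains had 1.36 times (1.15 to 1.61), and these intervals do not overlap. Over all scaffolds the ratios for all gap summits were 1.69 and 1.35, with intervals that overlap. For gap summits inside H3K27ac the shorter domains had 1.03 times the scaffold rate (0.750 to 1.38), and 0.665 times on scaffolds of at least 1 Mb (0.332 to 1.19), beside 1.41 and 1.95 in long domains. None of these differences between the length classes was tested, and 5 of the 19 summits behind the 1.95 lay in a single domain.

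**Figure D3:**
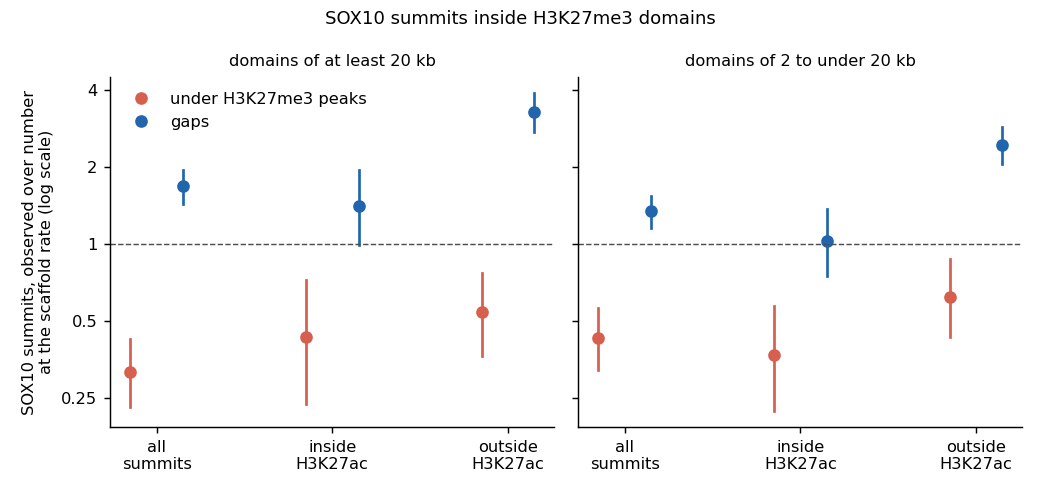
SOX10 summits observed over the number at each scaffold's own rate (log scale), under H3K27me3 peaks (red) and in gaps (blue), for long domains on the left and domains of 2 to under 20 kb on the right, with exact 95% Poisson intervals of the observed count. The gap value outside H3K27ac is 3.29 in long domains and 2.45 in the shorter ones, and all values under peaks lie below 1.

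A gap is where no H3K27me3 peak was called, and SOX10 summits were rarer in the shortest gaps. The density was 0.594 per 100 kb in gaps under 500 bp (5 summits, 0.193 to 1.39), 0.889 in those of 500 to 1000 bp, 1.74 in those of 1 to 2 kb, 1.85 in those of 2 to 3 kb and 1.46 in those of 3 to 5 kb. Only 158 of the 8397 gaps held a summit, and these had a median length of 2257 bp. A longer gap has more bases for a summit to fall in, so this length by itself shows no preference for long gaps. The nearest H3K27me3 peak was a median of 631 bp from a gap summit (7 to 2381 bp). The merging rule limits gaps to 5 kb and so bounds this distance, which was not compared with that of other positions in gaps. The 161 summits outside H3K27ac lay a median of 24.9 kb from the nearest H3K27ac peak, and 27 of them within 2 kb.

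Domains with less of their length covered held more SOX10 per 100 kb. More of their length is gap, so this is not independent of the higher density in gaps given above. From the least to the most covered class, the density was 1.09, 1.04, 0.781 and 0.358 per 100 kb. Against even spreading on each scaffold these were 1.45, 1.19, 0.871 and 0.386 times. By length class the ratios to even spreading were 1.03, 0.894, 0.969 and, for the 27 domains of at least 100 kb, 0.537. The longest class was also the most covered, so length and cover cannot be told apart in it.

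The gap summits outside H3K27ac were no thinner in reads than other SOX10 summits. They had a median of 37 fragments over a local background of 9.15, a median fold of 3.5 and a median −log10 q of 7.25. Summits outside H3K27ac on the rest of the same scaffolds had 32 fragments over 8.98, a fold of 3.40 and a −log10 q of 5.59. The 44 summits under H3K27me3 peaks had 21.5 fragments over 4.97, with a fold of 3.95. The background there was lower, and the part this has in the low number of summits under H3K27me3 was not tested.

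The SOX10 summit of highest fold in a long domain, 15.2 with 105 fragments, lay at 101630 to 102094 of AKCR02000286.1, inside H3K27ac of the most acetylated domain. The next, at 3361307 to 3361760 of AKCR02000055.1, had a fold of 10.4 and 113 fragments and lay in a gap, 197 bp from an H3K27ac peak. Those at 157877 to 158103 of AKCR02000215.1 (fold 9.52) and at 9286043 to 9286438 of AKCR02000027.1 (fold 8.46) lay in gaps inside H3K27ac. The other 2 of the 6 highest lay in gaps far from acetylation. The one at 2328118 to 2328401 of AKCR02000081.1 had a fold of 8.01 and was 172 kb from the nearest H3K27ac peak. The one at 1114085 to 1114468 of AKCR02000062.1 had a fold of 7.98 and was 122 kb away.

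Domains with several SOX10 summits differed in acetylation. That on AKCR02000122.1, 131 kb long, held 5 summits with 5.26% of its length acetylated. A domain on AKCR02000027.1, 59.4 kb long from 9272114 to 9331544, also held 5, with 36.1% acetylated, and lay 68.0 kb from the domain of 255 kb that had no H3K27ac. The domain of 82.0 kb at 12545513 to 12627550 of AKCR02000019.1 held 4 summits with 0.512% acetylated, and a 58.9 kb domain on AKCR02000104.1, from 984462 to 1043326, held 4 with 9.25%.

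H3K27ac and SOX10 both varied with the distance from the edge. On scaffolds of at least 1 Mb, H3K27ac covered 1.13% of the bases more than 25 kb inside an edge, 1.54% at 10 to 25 kb, 1.69% at 5 to 10 kb, 1.83% at 2 to 5 kb and 2.61% in the last 2 kb. Outside it covered 3.19% of the first 2 kb, 4.65% at 2 to 5 kb, 4.47% at 5 to 10 kb, 4.94% at 10 to 25 kb, 5.71% at 25 to 50 kb and 5.91% at 50 to 100 kb. The level on these scaffolds thus went up in small steps across the edge, apart from a fall from 4.65 to 4.47% outside. The innermost value comes from longer domains only. From 2 kb outward it was above the 3.46% of the rest of these scaffolds, which is pooled and not matched by scaffold. Each of these scaffolds' own H3K27ac share, applied to its long domains, would give 1101 kb in them. Per base, that is more than the 4.47 to 4.94% at 2 to 25 kb outside, so no excess was seen there against that level. Over all scaffolds the range was 2.62 to 6.49% inside and 6.47 to 7.69% outside. There was no rise at the edge itself there, with 6.49% in the last 2 kb inside and 6.47% in the first 2 kb outside. In the stretches 5 to 25 kb outside, H3K27ac covered 7.18% and SOX10 had 0.776 summits per 100 kb (0.662 to 0.903). On the log2 scale these were 0.95 and 0.39 above the rest of the same scaffolds, pooled and not matched by scaffold. On scaffolds of at least 1 Mb the log2 values were 0.48 and 0.23 (−0.05 to 0.50 for SOX10). Over all scaffolds, each scaffold's own rates would give 2195 kb of H3K27ac and 238 summits in the 26.8 Mb of long domains. Both are more per base than in these stretches, so the excess was not seen against that level, which is weighted by domain length.

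SOX10 without acetylation was densest 10 to 25 kb inside an edge, but the interval there overlaps those of the neighbouring inside bins. These densities are pooled and not matched by scaffold. Bases more than 25 kb inside came only from domains longer than 50 kb. On scaffolds of at least 1 Mb these were 194 stretches, beside 940 in each nearer bin. Beyond 10 kb inside, distance from the edge and domain length thus cannot be told apart. Within scaffolds of at least 1 Mb, bases under neither mark had 0.567 summits per 100 kb in the last 2 kb inside an edge (5 summits, 0.184 to 1.32). They had 1.01 at 2 to 5 kb (0.567 to 1.67) and 1.21 at 5 to 10 kb (0.790 to 1.77). At 10 to 25 kb the density was 1.92 (1.43 to 2.51), and farther in 1.33 (0.728 to 2.24). Just outside, the values were 0.554 in the first 2 kb (0.266 to 1.02) and 0.675 at 2 to 5 kb, and from 5 to 100 kb they lay between 0.330 and 0.466. The first 5 kb outside together had 0.626 (0.416 to 0.905), also above the 0.292 (0.280 to 0.303) of bases under neither mark on the rest of these scaffolds. Over all scaffolds, bases under neither mark had 1.33 summits per 100 kb more than 5 kb inside (1.09 to 1.61) and 0.352 from 5 to 25 kb outside (0.271 to 0.450), so these intervals do not overlap. Within that interior the density was 1.61 at 10 to 25 kb (1.22 to 2.09) and 0.986 more than 25 kb inside (0.552 to 1.63).

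**Figure D4:**
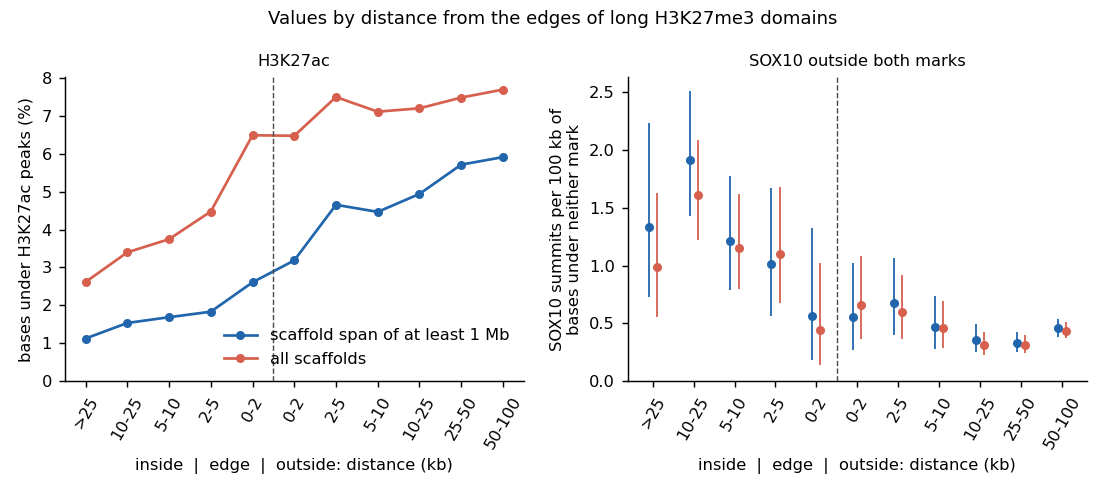
Values by distance (kb) from the 1296 edges of long domains, inside to the left and outside to the right of the dashed line. The left panel gives the percent of bases under H3K27ac and the right panel SOX10 summits per 100 kb of bases under neither mark with exact 95% Poisson intervals, for scaffolds of at least 1 Mb (blue) and all scaffolds (red). On the former, H3K27ac is lowest, at 1.13%, more than 25 kb inside, and SOX10 is highest, at 1.92 per 100 kb, 10 to 25 kb inside. The SOX10 interval of that bin overlaps those of its neighbouring bins. The bin more than 25 kb inside is filled by domains longer than 50 kb only.

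The edges were not set closely against acetylated chromatin. Of the 996 edges with at least 25 kb of span and no other long domain outside, 14.6% had an H3K27ac peak within 2 kb, 22.2% within 5 kb and 46.8% within 25 kb. Looking to one side from every position of the same scaffolds, weighted as the edges are, gave 15.0%, 22.5% and 46.8%. On scaffolds of at least 1 Mb the shares at 801 edges were 8.61% (6.76 to 10.8%), 15.9% and 39.8%, beside 10.99%, 17.3% and 40.5% of positions. The median distance from an edge to H3K27ac was 29.0 kb, and 40.6 kb on scaffolds of at least 1 Mb. Of the 404 domains with both edges free in this way, 159 had H3K27ac within 25 kb of neither edge, 143 of 1 edge and 102 of both. By the merging rule no H3K27me3 lies in the first 5 kb outside. Beyond, H3K27me3 of other domains covered 8.04% at 5 to 10 kb, 8.95% at 10 to 25 kb, 6.31% at 25 to 50 kb and 4.60% at 50 to 100 kb.

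The distance between neighbouring long domains varied widely. Of the 648, 98 were alone on their scaffold. The other 550 lay a median of 79.2 kb from the nearest other long domain (5.04 to 24540 kb), 92 of them within 10 kb, 232 within 50 kb and 299 within 100 kb. The median was 114.5 kb over the 453 domains with a neighbour on scaffolds of at least 1 Mb. Whether the domains lie closer together than unordered positions would was not tested. The closest pairs lay just above the merging gap, at 5.04 and 5.10 kb on AKCR02000030.1, 5.06 kb on AKCR02000049.1 and 5.12 kb on AKCR02000014.1. No H3K27ac lay between the domains of these 4 pairs, and a SOX10 summit lay between those of the closest.

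Stretches between close neighbours had a larger H3K27ac share than the 3.79% of all long domains together, as did stretches outside long domains in general. Outside all edges, those between neighbours included, the share was 7.09% at 0 to 5 kb and 7.18% at 5 to 25 kb. At 0 to 5 kb SOX10 had 1.00 summits per 100 kb (0.768 to 1.29). The 72 pairs within 20 kb had 8.60% of the bases between them under H3K27ac, from 22 of the pairs, and 8 SOX10 summits, or 1.23 per 100 kb (0.533 to 2.43). The 136 pairs within 50 kb had 8.75%, from 58 pairs, and 0.858 summits per 100 kb (0.544 to 1.29). These shares are pooled over scaffolds of all sizes and not matched by scaffold. The share inside the paired domains was not computed, so the stretches were not compared with their own neighbours.

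**Figure D5:**
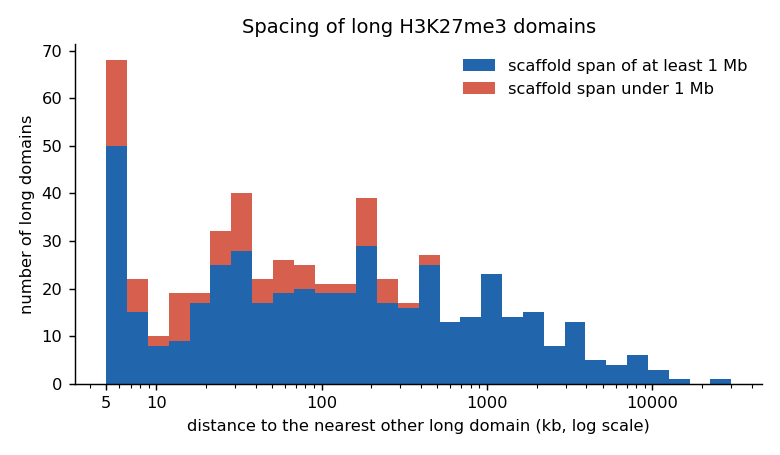
Distance (kb, log scale) from each of the 550 long domains with a neighbour to the nearest other long domain, as a stacked count by scaffold span. The first bar starts at the merging gap of 5 kb, and the median is 79.2 kb.

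Scaffolds differed widely in how many long domains they carried. Those with the most were AKCR02000019.1 and AKCR02000030.1 with 20 each, and AKCR02000043.1 and AKCR02000044.1 with 18 each. Their spans are 13.1, 8.62, 5.80 and 5.76 Mb, and AKCR02000047.1 carried 18 as well. Of the 127 scaffolds of at least 1 Mb, 44 had none, the largest of them spanning 7.19 Mb. The number per 10 Mb had a median of 2.75 and reached 65.3 on AKCR02000119.1. Across the 127 scaffolds, the share in long domains went with the H3K27ac share of the rest of the scaffold (Spearman's rho = 0.53) and with its SOX10 density (rho = 0.52). These are descriptions over scaffolds, which share the 3 libraries. Scaffold span was not held fixed, and its part in these values was not tested.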

How the data were processed

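Chromatin was fixed in 1% formaldehyde for 15 min, sheared to 300 to 500 bp and read as single 75 nt ends, per the labels' protocols. Per the submitters' processing notes the tools were bcl2fastq 2.20, Bowtie2 2.2.9, SAMtools 1.16 and MACS3 3.0.0. The sources used here do not give their order and settings, the control library or the genome build. The authors deposited 1 list of peak positions per library, with a summit for each SOX10 peak. They also deposited each peak's fold enrichment over local background, a ratio, and its p-value and q-value as −log10. These were used within a list only, and the deposited score was not used. The highest q-values present were 0.0462 (SOX10), 0.0968 (H3K27ac) and 0.0965 (H3K27me3).

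Intervals were merged and overlapped in Python 3.11.15 with NumPy 2.4.6, pandas 2.3.3 and SciPy 1.17.1, by code tested on made-up intervals, and drawn with Matplotlib 3.10.9. An overlap meant at least 1 shared base. The even number on a scaffold is its own count times the part of its span, or of its bases inside or outside H3K27ac, that lies in the domains. It is exact and not simulated, and its own counting error is not included. The count and span include the domains themselves, which draws ratios toward 1 where domains fill much of a scaffold. Flanks were cut at the span and at the next long domain, and 4.68% of the bases 5 to 25 kb outside were counted for 2 edges. Fragments at a SOX10 summit were the whole number that met the deposited −log10 p, with a largest error of 0.000645, where any other missed by at least 0.00631.

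The members and comparisons were chosen with earlier results of these data known. Regions were named by rule: the 12 longest domains, the 6 with most SOX10 summits, the 6 longest without H3K27ac, the 6 with the largest H3K27ac share, the 4 just inside and the 4 just outside 20 kb, the 6 SOX10 summits of highest fold, the 4 closest pairs and the 4 scaffolds with most domains. The unbroken domain, the least covered one and the scaffolds AKCR02000122.1, AKCR02000047.1 and AKCR02000119.1 were picked after their values were seen. Alternatives were merging gaps of 2 and 10 kb, stricter peak lists, domains of at least 50 kb, scaffolds of at least 1 Mb, and 50% of the H3K27ac peak as the overlap.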

Additional observations from a re-analysis of the deposited data

How the results depend on the processing

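Of 82 recalculations, 35 stayed within the interval of the reported value or within 1.5 times a reported count, 45 moved and 2 reversed. The cause of the changes was not tested. For values in H3K27me3 or H3K27ac bases, the interval was that of the peak counts, set around the reported value. A change of sign counted as reversed only where the reported interval left out 0. Sign changes of the pooled H3K27ac value therefore counted as moved or as within the interval. The 4 results set against each scaffold's own rate, and leaving out 1 scaffold, were chosen after seeing the data. No paired analysis was possible because there was 1 library of each target, and no replicate could be left out. Log2 values are given below in this order where they moved: H3K27ac inside over the rest (reported 0.025), H3K27ac inside over the scaffold rate (−1.11), H3K27ac 5 to 25 kb outside over the rest (0.95).

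With gaps of up to 2 kb there were 307 domains with 22.9% of H3K27me3 bases, 15.6% had SOX10, the median spacing was 50.3 kb, and the log2 values were −0.76, −1.98 and 1.15. With gaps of up to 10 kb there were 1186 domains with 56.9% of the bases, and the values were 0.35, −0.71 and 0.75. With H3K27me3 peaks of −log10 q of at least 3 there were 224 domains with 28.2% of the bases, 56.7% had H3K27ac and 18.3% SOX10, the spacing was 111.9 kb, and the values were −0.17, −1.50 and 1.35. Domains of at least 50 kb numbered 136 with 19.95% of the bases, 61.0% had H3K27ac and 43.4% SOX10, and the values were −0.38, −1.42 and 1.27. On scaffolds of at least 1 Mb long domains held 38.8% of the bases, 31.7% had H3K27ac, the spacing was 114.5 kb, and the values were −1.07, −1.80 and 0.48. With H3K27ac peaks of −log10 q of at least 3, 32.3% had H3K27ac, and the first 2 values were −0.29 and −1.36. The pooled H3K27ac comparison thus has no stable sign, while the one matched by scaffold stayed negative in all 6 alternatives.

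SOX10 density inside over the rest (log2 0.41) reversed to −0.23 with gaps of up to 2 kb and to −1.05 under H3K27me3 peaks only. It was 0.13 with the stricter H3K27me3 peaks, 0.20 for domains of at least 50 kb and 1.31 in gaps only. SOX10 inside over the scaffold rate (−0.17) was −0.83 with gaps of up to 2 kb and −0.52 with the stricter H3K27me3 peaks. SOX10 under H3K27me3 peaks over the scaffold rate (−1.66) was −1.14 with the stricter H3K27me3 peaks. SOX10 outside H3K27ac in gaps over the scaffold rate (1.72) was 1.27 with gaps of up to 10 kb and 2.01 with SOX10 peaks of −log10 q of at least 5, which left 17.4% of domains with SOX10. It was 1.67 without the scaffold that carried the most such summits. Library depth is not known here. A gap means that no H3K27me3 peak was called there, not that the mark is absent.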
